A study of Mus musculus with 18 samples.

Results

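The MHC class I chains described here are 8 genes, taken by symbol: the heavy chain genes H2-K1, H2-D1, H2-Q4, H2-Q6, H2-Q7 and H2-T23, the light chain gene B2m, and Nlrc5, which encodes a transcriptional activator of these genes. They are 8 of 48529 genes summed from the transcript quantifications, and all 8 were among the 15774 genes with enough reads to be tested. They were chosen by their higher read sums in MM than in SHAM libraries, known beforehand, so the MM and SHAM values of these 8 genes are a description and carry no test. RNA was sequenced from the dorsal root ganglia (DRG) of 18 male C57BL/KaLwRijHsd mice aged 5 to 7 weeks. The MM group was 9 mice that received 5TGM1-GFP cells, a mouse myeloma line carrying green fluorescent protein, in the femur. The SHAM group was 9 mice that received vehicle by the same route. Whole L2, L3 and L4 ganglia of the operated side were taken on post-surgical day 24, and the series design gives each library as 1 mouse.

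A class I molecule is a heavy chain, the light chain beta-2 microglobulin and a short peptide, which cytotoxic T cells and natural killer cells read at the cell surface. H2-K1 and H2-D1 are the classical heavy chains that present peptides to CD8 T cells. The Q and T genes are non-classical heavy chains with more restricted roles. Interferons raise transcription of most of these genes, and NLRC5, itself induced by interferon gamma, acts with factors bound at the promoter. Neurons are known for low class I levels at rest, while glia, vessels and macrophages of the ganglion carry more. The myeloma line arose in mice of this strain, so reads of tumour and host class I genes were counted together.

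The promoters are shown as a description, and their part in the expression values was not tested. RefSeq gave sequence for 7 of the 8 members (build GRCm38.p6, the reference strain and not these mice), and Nlrc5 is named only. Each sequence below runs 5′ to 3′ on the strand of the gene and ends before the annotated start. Capitals mark matches, on either strand, to 5 motifs: GGGNNTTCC (a core of the NF-kappaB element), TTTCNNTTC and TTTCNNTTT (cores of the interferon-stimulated response element), TGACG (the core of the X2 box and the CRE) and ATTGG (the Y box, an inverted CCAAT). The cores were settled after the sequences were seen, and no match overlapped another. Strand and position are chr17:34000349-34000468 on the minus strand for H2-K1, chr17:35262913-35263055 plus for H2-D1, chr17:35379434-35379576 plus for H2-Q4, chr17:35424667-35424809 plus for H2-Q6, chr17:35439012-35439153 plus for H2-Q7, chr17:36032739-36032835 minus for H2-T23 and chr2:122147539-122147648 plus for B2m.
H2-K1: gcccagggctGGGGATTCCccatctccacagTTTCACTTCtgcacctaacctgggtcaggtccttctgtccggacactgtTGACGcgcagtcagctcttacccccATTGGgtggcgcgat
H2-D1: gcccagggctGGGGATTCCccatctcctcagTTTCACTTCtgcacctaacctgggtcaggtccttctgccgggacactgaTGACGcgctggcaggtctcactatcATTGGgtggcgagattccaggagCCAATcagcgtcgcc
H2-Q4: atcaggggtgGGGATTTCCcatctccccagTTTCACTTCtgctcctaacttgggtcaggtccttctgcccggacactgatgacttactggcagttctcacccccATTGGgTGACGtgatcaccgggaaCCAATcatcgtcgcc
H2-Q6: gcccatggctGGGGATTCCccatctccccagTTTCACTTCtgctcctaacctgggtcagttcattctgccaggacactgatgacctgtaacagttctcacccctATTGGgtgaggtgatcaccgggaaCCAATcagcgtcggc
H2-Q7: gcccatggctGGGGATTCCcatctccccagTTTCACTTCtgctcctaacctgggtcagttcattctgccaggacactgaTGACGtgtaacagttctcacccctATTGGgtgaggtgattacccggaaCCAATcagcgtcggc
H2-T23: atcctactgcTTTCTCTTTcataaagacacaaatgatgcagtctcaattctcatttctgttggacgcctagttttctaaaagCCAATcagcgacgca
B2m: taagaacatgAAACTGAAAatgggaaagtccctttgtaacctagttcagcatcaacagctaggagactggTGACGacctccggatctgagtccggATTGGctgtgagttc

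The promoters of H2-K1, H2-D1, H2-Q4, H2-Q6 and H2-Q7 shared 1 layout. In each, GGGNNTTCC lay 20 or 21 bases before TTTCNNTTC, which lay 73 or 74 bases before ATTGG, counted from first base to first base. In the window of 250 bases before to 50 after the start, GGGNNTTCC was in 5 of 7 members and in 5.72% of 27025 mouse promoters. TTTCNNTTC was in the same 5 members and in 7.56% of promoters. These 5 promoters are close copies of one another, and the cores were settled after the sequences were seen. The 5 are therefore not independent, and nothing is read from the member counts of the motifs. H2-T23 and B2m lacked both and instead held TTTCNNTTT, found in 10.7% of promoters, which B2m carries on the opposite strand. ATTGG was in 7 of 7 members and 37.9% of promoters, and TGACG in 5 of 7 and 21%. The interferon gamma-activated site TTCNNNGAA was in 0 of 7 and in 8.47% of promoters. Letters that match a motif are not shown to be bound in these ganglia, and windows without a match say nothing about the factor.

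Libraries held between 19014161 and 21538262 estimated reads over genes. Defining genes of sensory neurons and of satellite glia and Schwann cells were abundant in every library: 10 neuronal markers summed to between 5448 and 10621 CPM in MM and between 8184 and 10311 CPM in SHAM libraries (CPM, the reads of a gene relative to the scaled library total). The 8 glial markers summed to between 4164 and 16472 CPM in MM and between 3162 and 12728 CPM in SHAM libraries. MM5 had the lowest neuronal sum of all libraries and the highest glial, endothelial, macrophage and T and NK cell sums. The libraries MM5, MM8 and MM9 stood apart. Ighg2b, the immunoglobulin heavy chain of the myeloma line, was at 2197, 2334 and 4374 CPM in them, between 11.7 and 390 CPM in the other 6 MM libraries, with MM2 lowest, and between 0.1 and 16.4 CPM in SHAM libraries. The 10 macrophage markers summed to between 84.8 and 467 CPM in MM and between 51.0 and 130 CPM in SHAM libraries. Of these 10, 6 (Cd68, Aif1, C1qa, C1qb, C1qc, Ms4a7) passed the edgeR test as higher in MM, where 2.75% of all genes tested did. The 10 T and NK cell markers summed to between 1.87 and 15.7 CPM in MM and between 1.86 and 4.02 CPM in SHAM libraries; 2 were testable, 0 of these passed the edgeR test, and Ncr1 was under 0.5 CPM everywhere. Of the myeloma and plasma cell markers, 7 of 8 tested rose in MM, and the 10 summed to between 46.4 and 8138 CPM in MM and between 26.6 and 57.0 CPM in SHAM libraries. Of 7 endothelial and 8 glial markers 0 passed in either direction by edgeR, and of 10 neuronal markers 1 fell. In whole tissue, more cells of a type and more RNA per cell cannot be told apart, and the part of tumour cells or macrophages in the class I values was not tested.

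All 8 members had positive log2 fold changes of MM over SHAM, from 1.06 for B2m to 3.79 for H2-Q6, with a median of 1.64. The median over all genes tested was -0.00419. By edgeR, 7 of 8 members were called higher in MM, where 2.75% of all genes tested were (2.99% in either direction, 0.241% lower); nothing is read from this count, because the same contrast chose the members. B2m was the one not called. No member had every MM library above every SHAM library, a pattern that 0.12% of genes tested showed. The libraries MM5, MM8 and MM9 were above every SHAM library for 8 of 8 members, MM1 for 7, MM3, MM4 and MM7 for 6, MM6 for 5 and MM2 for 0. The share of all genes tested that lay above every SHAM library in each single MM library was not counted. Nothing is therefore read from these counts per library. With MM5, MM8 and MM9 left out, all 8 fold changes stayed positive, from 0.33 for B2m to 2.18 for H2-Q6, and H2-K1, H2-Q6 and H2-Q7 were still called. Leaving out single libraries gave 2 called members without MM5 and 3 without MM8, MM9, SHAM1, SHAM3, SHAM7 or SHAM8. It gave 4 without SHAM2, SHAM5 or SHAM9, 5 without SHAM4, and 7 without MM1 or SHAM6. It gave 8 without MM2, MM3, MM4, MM6 or MM7. Without SHAM7 and SHAM8 together it was 1. The count over all genes tested moved as well. It was 471 with all libraries, 84 without MM5 and 1014 without MM2. Without MM5, MM8 and MM9 together it was 60, and without SHAM7 and SHAM8 together 35. Nothing is read from these member counts either.

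**Figure D1:**
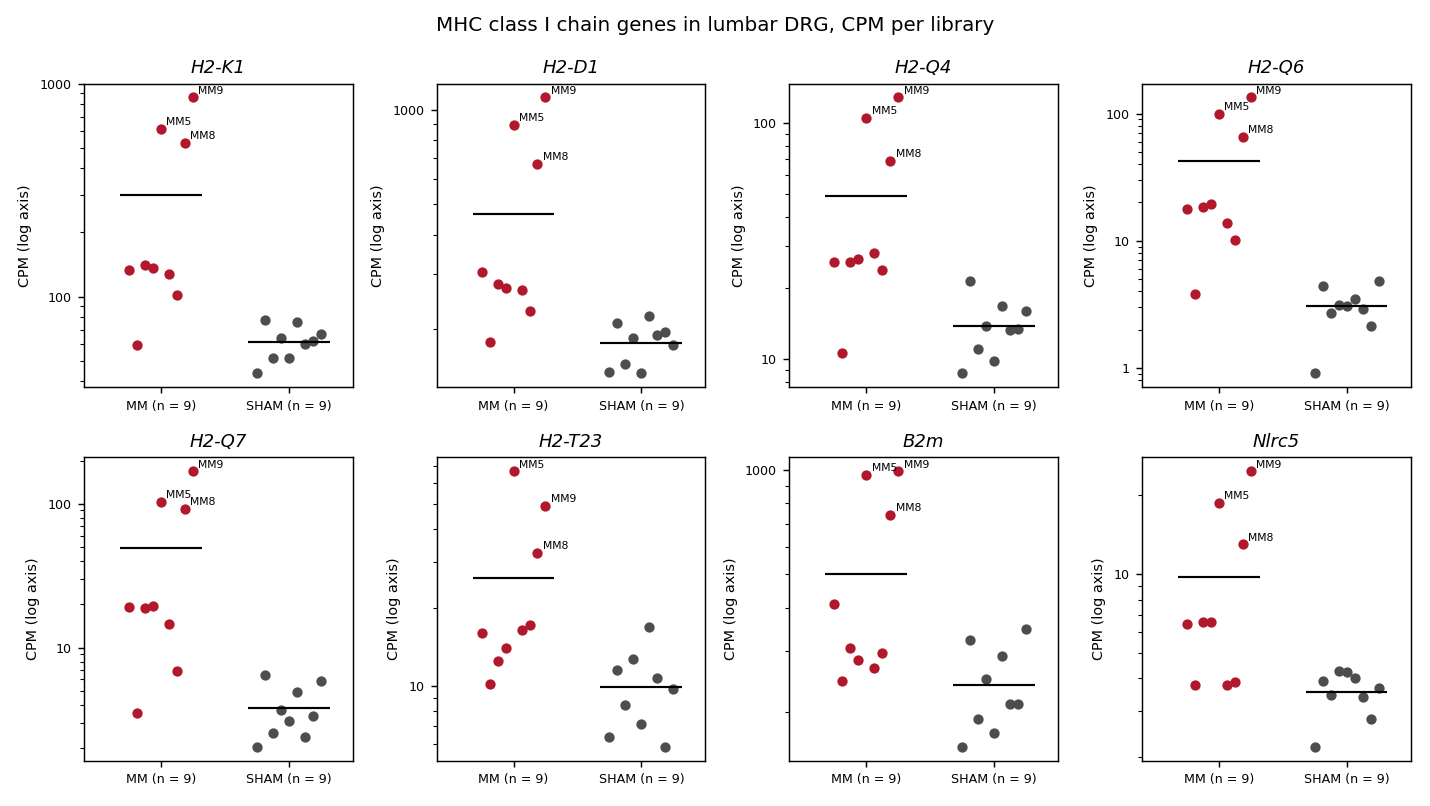
Expression of the 8 class I members, in CPM on a log axis, with 1 point per library and a line at the group mean, for MM (left, n = 9) and SHAM (right, n = 9). MM5, MM8 and MM9 are named and lie above every SHAM point in all 8 panels, while the lowest MM point lies within the SHAM range in each.

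H2-K1 (ENSMUSG00000061232, chromosome 17), a classical heavy chain, had a lowest, median and highest value of 59.2, 136 and 862 CPM in MM libraries, against 43.6, 62.1 and 78.0 CPM in SHAM libraries. MM9 was highest and MM2 lowest, and MM2 was the only MM library inside the SHAM range. The log2 fold change was 2.29 ± 0.45 (SE, n = 9 each) and 0.92 without MM5, MM8 and MM9. H2-D1 (ENSMUSG00000073411, chromosome 17), the other classical heavy chain, had 181, 277 and 1097 CPM in MM libraries, against 144, 187 and 220 CPM in SHAM libraries. Again 8 of 9 MM libraries exceeded the highest SHAM library, and MM2 did not. Its log2 fold change was 1.37 ± 0.32, or 0.49 without MM5, MM8 and MM9.

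The Q genes had the 2 largest fold changes of the members. H2-Q6 (ENSMUSG00000073409, chromosome 17), 1 of the genes that encode the Qa-2 antigen, had a lowest, median and highest value of 3.79, 18.4 and 134 CPM in MM libraries, against 0.906, 3.07 and 4.86 CPM in SHAM libraries. H2-Q7 (ENSMUSG00000060550, chromosome 17), another Qa-2 gene, had 3.5, 19.1 and 169 CPM in MM libraries, against 2.03, 3.34 and 6.47 CPM in SHAM libraries. For both, 8 MM libraries lay above all SHAM libraries and MM2 lay among them. The log2 fold changes were 3.79 ± 0.61 for H2-Q6 and 3.70 ± 0.66 for H2-Q7, or 2.18 and 1.85 without MM5, MM8 and MM9. H2-Q4 (ENSMUSG00000035929, chromosome 17), a Q gene outside the Qa-2 group, had 10.6, 26.5 and 128 CPM in MM libraries, against 8.69, 13.4 and 21.3 CPM in SHAM libraries. Its log2 fold change was 1.84 ± 0.40, or 0.77 without MM5, MM8 and MM9, with the same 8 MM libraries above the SHAM range.

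H2-T23 (ENSMUSG00000067212, chromosome 17) encodes Qa-1, which binds the inhibitory CD94/NKG2A receptor of natural killer and T cells. It had a lowest, median and highest value of 10.2, 16.4 and 66.8 CPM in MM libraries, against 5.83, 9.76 and 16.8 CPM in SHAM libraries. The groups overlapped more than for H2-K1: 4 of 9 MM libraries were above the highest SHAM library, and MM5 in place of MM9 was highest. The log2 fold change was 1.39 ± 0.35, or 0.53 without MM5, MM8 and MM9.

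B2m (ENSMUSG00000060802, chromosome 2), the light chain that every heavy chain needs for stable surface expression, had a lowest, median and highest value of 246, 307 and 991 CPM in MM libraries, against 159, 212 and 349 CPM in SHAM libraries. Only MM1, MM5, MM8 and MM9 exceeded the highest SHAM library, although all 9 MM libraries were above the SHAM median. The log2 fold change was 1.06 ± 0.30, the smallest of the 8, and 0.33 without MM5, MM8 and MM9. Nlrc5 (ENSMUSG00000074151, chromosome 8) had 3.78, 6.58 and 24.7 CPM in MM libraries, against 2.19, 3.67 and 4.29 CPM in SHAM libraries. MM2, MM6 and MM7 were inside the SHAM range for Nlrc5, and the other 6 MM libraries were above it. Its log2 fold change was 1.45 ± 0.35, or 0.54 without MM5, MM8 and MM9.

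The size of the difference varied among members within the same libraries. In MM5, MM8 and MM9 the fold over the SHAM mean was between 21.4 and 43.8 for H2-Q6, between 24.3 and 44.4 for H2-Q7, between 8.56 and 14.0 for H2-K1, and between 3.09 and 4.13 for B2m. In the other 6 MM libraries it was between 1.24 and 6.38 for H2-Q6, between 0.918 and 5.09 for H2-Q7, between 0.962 and 2.27 for H2-K1, and between 1.02 and 1.71 for B2m. MM7, whose Ighg2b level of 104 CPM was the lowest after MM2, had H2-Q6 at 3.34 times and Nlrc5 at 1.09 times the SHAM mean. Its H2-T23, at 1.73 times, was the highest of the other 6 MM libraries. MM6, with Ighg2b at 253 CPM, had H2-Q6 at 4.47, Nlrc5 at 1.06 and H2-T23 at 1.65 times the SHAM mean.

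**Figure D2:**
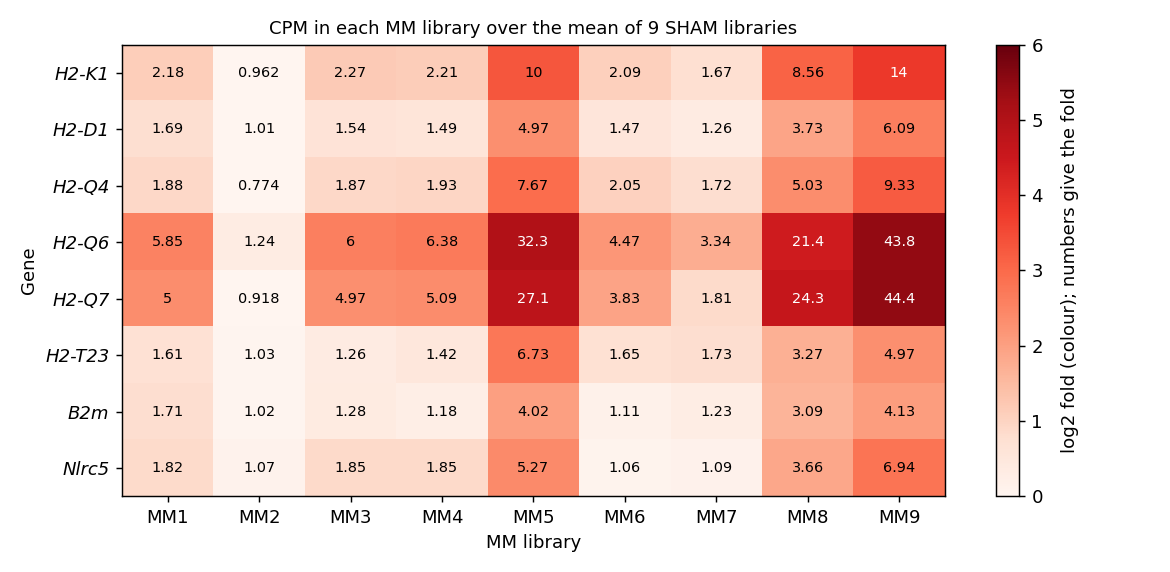
Fold of each MM library over the mean of the 9 SHAM libraries, in CPM, for the 8 members (rows) and 9 MM libraries (columns); colour is on the log2 scale and numbers are the fold. H2-Q6 and H2-Q7 reach 43.8 and 44.4 in MM9, B2m reaches 4.13 there, and MM2 stays between 0.774 and 1.24 for all 8.

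On a scale corrected for transcript length (TPM, reads per base of transcript, scaled to a fixed total in each library), B2m was the highest member in both groups and Nlrc5 the lowest. In MM libraries the median TPM ran B2m 864, H2-K1 308, H2-D1 267, H2-Q4 29.1, H2-T23 23.1, H2-Q7 22.8, H2-Q6 16.9 and Nlrc5 3.45. In SHAM libraries it ran B2m 610, H2-D1 169, H2-K1 109, H2-Q4 13.3, H2-T23 13.2, H2-Q7 3.81, H2-Q6 2.87 and Nlrc5 1.2. Within single libraries, all 9 MM libraries had B2m above H2-K1, H2-D1 above H2-Q4 and H2-Q6 above Nlrc5, 8 had H2-Q4 above H2-T23 and H2-Q7 above H2-Q6, and 7 had H2-K1 above H2-D1, while only 3 had H2-T23 above H2-Q7. All 9 SHAM libraries had B2m above H2-D1, H2-D1 above H2-K1, H2-K1 above H2-Q4 and H2-T23 above H2-Q7, and 8 had H2-Q7 above H2-Q6 and H2-Q6 above Nlrc5, while 5 had H2-Q4 above H2-T23. Ranges across libraries overlapped for most neighbours; those of H2-D1 and H2-Q4 in MM libraries, of B2m and H2-D1 in SHAM libraries and of H2-K1 and H2-Q4 in SHAM libraries did not.

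The balance among heavy chains differed between MM and SHAM libraries. H2-K1 made up 46.6 ± 7.4% of the summed TPM of the 6 heavy chain genes in MM and 35.1 ± 1.89% in SHAM libraries, and H2-D1 made up 39.8 ± 8.46% in MM and 54.1 ± 3.07% in SHAM libraries (SD, n = 9 each). H2-Q6 and H2-Q7 together held 6.08 ± 2.22% in MM and 2.17 ± 0.646% in SHAM libraries. For each of these 3 shares, 8 of 9 MM libraries lay outside the SHAM range on the same side and MM2 lay within it. With only the leading transcript of each gene, the one with most reads, the shares were 30.5 ± 4.6% in MM and 25.3 ± 0.732% in SHAM libraries for H2-K1, and 53.7 ± 5.93% in MM and 62.6 ± 2.09% in SHAM libraries for H2-D1, so H2-D1 held the larger share in both groups. H2-Q6 and H2-Q7 together then held 5.08 ± 1.89% in MM and 1.57 ± 0.479% in SHAM libraries, and for these 3 shares too 8 of 9 MM libraries lay outside the SHAM range. The leading transcript of H2-Q7 is a 4209-base form with a retained intron, so these shares are not of coding mRNA alone. The shares over all transcripts of H2-Q4, at 4.2 ± 0.643% in MM and 4.38 ± 0.577% in SHAM libraries, and of H2-T23, at 3.31 ± 1.07% in MM and 4.17 ± 0.916% in SHAM libraries, differed by about the spread between libraries or less.

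The ratio of H2-D1 to H2-K1 TPM was between 0.505 and 1.62 in MM libraries and between 1.36 and 1.78 in SHAM libraries. It was under 1 in 7 of 9 MM libraries, and only in MM2 did it fall in the SHAM range. Which of the pair was higher depended on the transcripts counted. With only the leading transcript of each gene, the ratio was between 1.21 and 2.57 in MM libraries and between 2.31 and 2.67 in SHAM libraries, so H2-D1 was higher in all 18, and 8 of 9 MM libraries still lay below the SHAM range. A 457-base H2-K1 transcript with a retained intron, which took 9.97 ± 3.07% of the gene's reads in MM and 5.97 ± 0.915% in SHAM libraries, was among those left out.

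The heavy chains were higher relative to the light chain in most MM libraries. The summed TPM of the 6 heavy chain genes was 0.77 ± 0.248 of the B2m TPM in MM libraries and 0.465 ± 0.062 in SHAM libraries (SD, n = 9 each). It was above the highest SHAM library, 0.516, in 8 of 9 MM libraries, and was highest in MM9, at 1.24. With only the leading transcript of each heavy chain, for H2-Q7 the retained-intron form, the ratio was 0.477 ± 0.114 in MM and 0.339 ± 0.0485 in SHAM libraries. It was above the highest SHAM library in 7 of 9 MM libraries and 0.683 in MM9. The difference between the group means was then 0.138, against 0.304 over all transcripts, so whether heavy chain TPM exceeded B2m TPM in MM9 depended on the transcripts counted. With H2-K1 and H2-D1 alone the ratio was 0.663 ± 0.207 in MM and 0.416 ± 0.0599 in SHAM libraries. With all H2 class I heavy chains it was 0.825 ± 0.243 in MM and 0.53 ± 0.0754 in SHAM libraries.

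**Figure D3:**
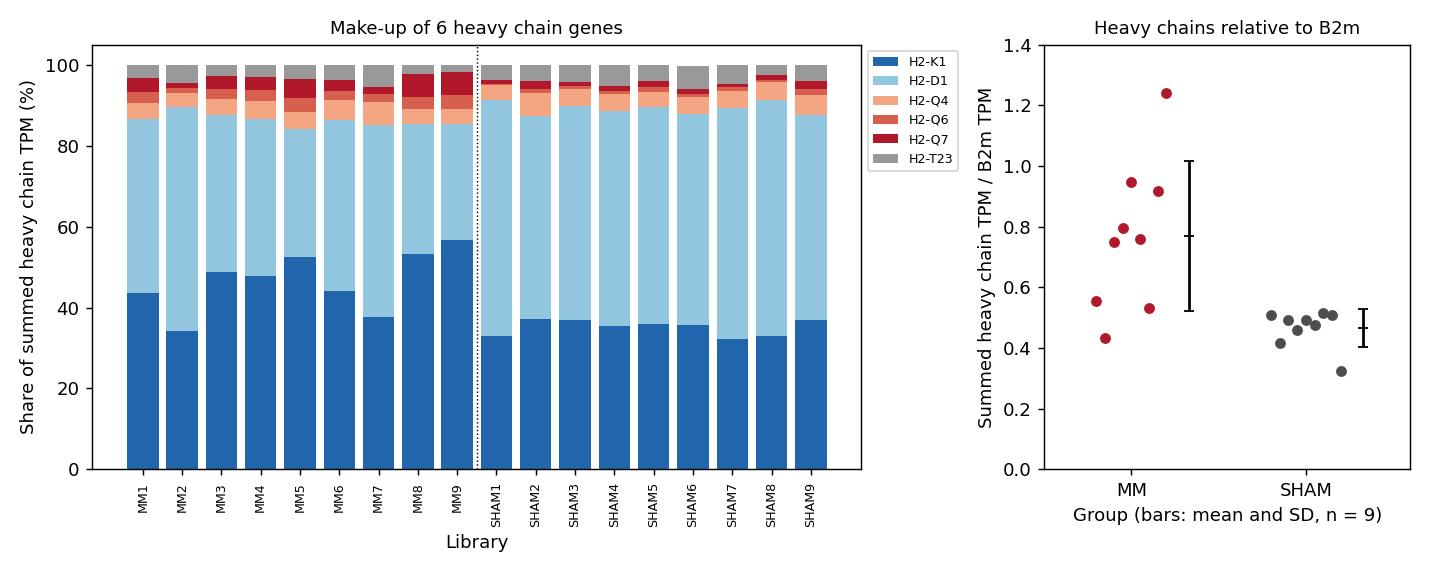
Left, share (%) of the summed heavy chain TPM held by each of 6 heavy chain genes in the 9 MM (left of the dotted line) and 9 SHAM libraries. Right, summed heavy chain TPM over B2m TPM per library with the mean and SD; both panels count all transcripts, and 8 of 9 MM points lie above the highest SHAM point at 0.516.

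Close copies limit how far single heavy chains can be told apart. Of the 31-base words in its annotated transcripts, H2-Q6 shared all but 49.7% with other genes, 24.6% of them with H2-Q4. The share found in no other gene was 60.9% for H2-Q7, 61.6% for H2-Q4, 73.3% for H2-D1, 75.5% for H2-T23 and 77.2% for H2-K1, and it was 100% for B2m and Nlrc5. H2-Q4, H2-Q6 and H2-Q7 values are therefore uncertain singly. Summed as 1 gene, the 8 H2-Q genes had between 19.46 and 448.3 CPM in MM libraries, against between 12.26 and 33.61 CPM in SHAM libraries, a log2 fold change of 2.72 ± 0.51 (SE, n = 9 each). All 22 H2 class I heavy chains summed had a log2 fold change of 1.68 ± 0.36. The largest part of H2-Q7 reads, 44.5 ± 4.14% in MM and 51.0 ± 6.27% in SHAM libraries, was assigned to a transcript with a retained intron, so its gene total is not a measure of coding mRNA alone.

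Nlrc5 reads jumped between 2 long transcripts. The 7578-base form took 46.0 ± 30.4% of the gene's reads in MM and 72.7 ± 34.1% in SHAM libraries, with single libraries from 8.72 to 100% in MM. SHAM4 was the only SHAM library with reads on a 557-base and a 346-base form, at 3.65% and 4.13% of the gene's reads. In the authors' deposited table, Nlrc5 in SHAM4 stood at 269, while the next highest SHAM library was at 83.2 and MM libraries ran from 46.4 to 729. The read sum gave SHAM4 4.29 CPM, close to SHAM5 at 4.24 CPM. The deposited value was 3.05 times the read sum in that library, the highest such ratio among the members. The part of these transcripts in the deposited value was not tested, and the read sums are used here.

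A measure that the choice of members did not use is how they vary among vehicle-treated mice. Over the 9 SHAM libraries, all 28 pairs of members had a positive Pearson r of log2 CPM, from 0.34 to 0.97 with a median of 0.73, and 13 pairs passed a 2-sided exact permutation test after Benjamini-Hochberg adjustment over the 28. By Spearman's rho 12 passed. How many pairs of other genes pass was not counted, so the 13 are not shown to be particular to the members. H2-K1 and H2-Q4 were closest (r = 0.97, exact permutation adjusted p = 0.00193; rho = 1.0, adjusted p = 0.000154; n = 9), and r was 0.96 without the 2 libraries farthest from the H2-K1 median, SHAM1 and SHAM2. Of the 15 pairs of heavy chains, 8 passed.

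B2m varied with 4 of the 6 heavy chains over the SHAM libraries. Its r was 0.94 with H2-Q7 (rho = 0.92; exact permutation adjusted p = 0.00448 for r and 0.00612 for rho, n = 9), 0.93 with H2-Q4, 0.90 with H2-K1 and 0.80 with H2-Q6. Without the 2 farthest libraries these were 0.86, 0.91, 0.83 and 0.71. Nlrc5 varied less clearly with the chains: 1 of its 7 pairs passed, with H2-Q6 (r = 0.86, exact permutation adjusted p = 0.02, n = 9), and by Spearman's rho 0 of 7 did (rho = 0.67, exact permutation adjusted p = 0.097 for H2-Q6). Its r with H2-K1 was 0.59, and 0.08 without SHAM1 and SHAM2. The pairs H2-K1 with H2-Q6 (r = 0.77) and H2-Q4 with H2-Q6 (r = 0.76) dropped to 0.41 and 0.48 without those libraries, so they rest on them.

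SHAM1 was lowest of the SHAM libraries for 6 of the 8 members, SHAM2 was highest for 3, and SHAM6 and SHAM9 for 2 each. The macrophage marker sum was also lowest in SHAM1, at 51.0 CPM, was 78.7 CPM in SHAM2 and was highest in SHAM6, at 130 CPM. Among SHAM libraries, SHAM6 also had the highest sums of glial (12728 CPM) and endothelial markers (166 CPM) and the lowest of neuronal markers (8184 CPM). The part of cell make-up in these correlations was not tested. Heavy chain pairs also share reads, as the shared sequence above shows, whereas B2m and Nlrc5 share none with other genes.

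**Figure D4:**
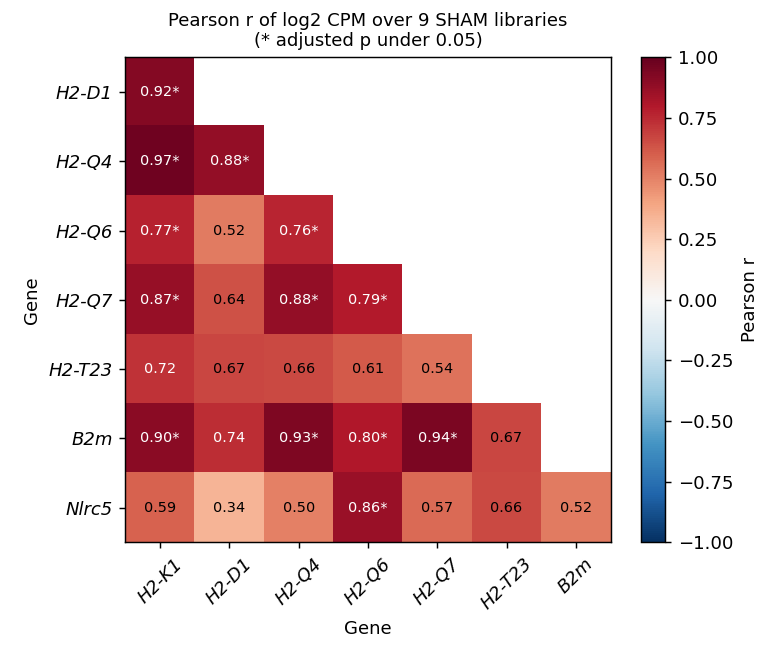
Pearson r of log2 CPM for each of the 28 pairs of members over the 9 SHAM libraries, with colour and number giving r and a star marking an exact permutation p adjusted over 28 pairs under 0.05. The 13 starred pairs lie mostly among H2-K1, H2-D1, H2-Q4, H2-Q6, H2-Q7 and B2m, and H2-T23 has none.

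Other genes of the class I pathway were counted in lists set out by role. Over all genes tested, edgeR called 2.75% higher and 0.241% lower in MM, and the median log2 fold change was -0.00419. These shares stand beside each list count below. Of 18 other H2 class I heavy chain genes, 6 had enough reads to be tested, 4 rose in MM and 0 fell, and the median log2 fold change was 0.84. H2-Q5, a Q gene beside the members, had a lowest, median and highest value of 0.591, 1.82 and 15.2 CPM in MM libraries, against 0.14, 0.373 and 0.527 CPM in SHAM libraries. The groups did not overlap, as for 0.12% of genes tested, but the lowest MM and highest SHAM values are close and rest on few reads. How much sequence H2-Q5 shares with other Q genes was not measured, so its values are uncertain singly. Its log2 fold change was 3.78 ± 0.65 (edgeR adjusted p = 0.00904) and 2.01 ± 0.31 without MM5, MM8 and MM9 (edgeR adjusted p = 0.00957). H2-T10, whose product is read by some gamma delta T cells, had 0.69, 1.32 and 8.48 CPM in MM libraries, against 0.424, 0.55 and 1.1 CPM in SHAM libraries (log2 fold change 2.18 ± 0.51, edgeR adjusted p = 0.032), and its log2 fold change was 0.67 ± 0.25 without MM5, MM8 and MM9 (edgeR adjusted p = 0.374). It is a near copy of H2-T22, which also rose, so the pair's values are uncertain singly; H2-T22 had a log2 fold change of 0.52 ± 0.14 (edgeR adjusted p = 0.0486), and 0.23 ± 0.07 without those 3 libraries (edgeR adjusted p = 0.216). H2-M3, which presents formylated bacterial peptides, was the fourth to rise, named after its values were seen. For H2-M3, all 9 MM libraries, between 4.2 and 17 CPM, were above the SHAM libraries, between 2.63 and 4.15 CPM. This pattern was shown by 0.12% of genes tested. Without MM5, MM8 and MM9 the log2 fold change of H2-M3 was 0.47 ± 0.12 (edgeR adjusted p = 0.141), so H2-Q5 was the only 1 of the 4 still called. H2-T24 and H2-Q1 did not pass, with log2 fold changes of -0.05 and -0.17. Of the 6, edgeR called 1 without MM5, MM8, MM9 or any SHAM library but SHAM4 and SHAM6, each left out singly, and 0 without SHAM7 and SHAM8 together.

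Among 13 genes that supply and load peptide, 3 rose in MM, 0 fell, and all 13 fold changes were positive with a median log2 fold change of 0.41. Psmb9, a catalytic subunit of the immunoproteasome, had a lowest, median and highest value of 2.86, 5.44 and 24 CPM in MM libraries, against 1.44, 2.85 and 4.31 CPM in SHAM libraries (log2 fold change 1.72 ± 0.39, edgeR adjusted p = 0.0267). Psmb8, another such subunit, had 7.49, 13.2 and 54.4 CPM in MM libraries, against 6.42, 8.38 and 9.14 CPM in SHAM libraries (log2 fold change 1.42 ± 0.33, edgeR adjusted p = 0.03). In both, 8 of 9 MM libraries were above all SHAM libraries. Tap1, a subunit of the peptide transporter, was the third to rise (log2 fold change 1.51 ± 0.36, edgeR adjusted p = 0.0325). The chaperones Calr, Canx and Pdia3 had log2 fold changes of 0.23, 0.10 and 0.16 and did not pass. Without MM5, MM8 and MM9, 0 of the 13 passed the edgeR test: the log2 fold changes were 0.51 ± 0.11 for Psmb8, 0.71 ± 0.19 for Psmb9 and 0.58 ± 0.19 for Tap1 (edgeR adjusted p = 0.0615, 0.159 and 0.271). With single libraries left out the count ran from 0, without MM5, MM8, MM9 or any SHAM library but SHAM4 and SHAM6, to 8, without MM2 or SHAM6; DESeq2 called 8.

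Of 24 genes for class I transcription and interferon signalling, 3 rose in MM, 0 fell, and the median log2 fold change was 0.14. Irf9, the DNA-binding part of the type I interferon complex ISGF3, had a lowest, median and highest value of 22, 25.9 and 48.3 CPM in MM libraries, against 14.7, 16.8 and 21.8 CPM in SHAM libraries. Every MM library, MM2 included, was above every SHAM library, as for 0.12% of genes tested. Its log2 fold change was 0.77 ± 0.13 (edgeR adjusted p = 0.00986), and 0.53 ± 0.09 without MM5, MM8 and MM9 (edgeR adjusted p = 0.0131). Stat2, which binds Irf9 in that complex, rose by a log2 fold change of 0.32 ± 0.08 (edgeR adjusted p = 0.0485), close to the threshold of 0.05, and had a log2 fold change of 0.19 ± 0.07 without MM5, MM8 and MM9, where it did not pass (edgeR adjusted p = 0.373). The edgeR count was 1 without MM5, MM8, MM9 or any single SHAM library, and 0 without SHAM7 and SHAM8 together. The listed factors of the X box, the CRE and the Y box did not pass. Rfx5, Rfxap and Rfxank, which bind the X box, had log2 fold changes of 0.25, 0.00 and 0.03, and Creb1 and Atf1 had 0.03 and 0.50. Nfya, Nfyb and Nfyc, which bind the Y box, had 0.23, 0.14 and 0.06. The NF-kappaB genes Nfkb1 and Rela had 0.25 and 0.15 and did not pass either. Irf1, an interferon gamma target that activates class I promoters, had 16.5 ± 7.61 CPM in MM and 13.7 ± 3.05 CPM in SHAM libraries (SD, n = 9 each) and did not pass.

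Of 13 class I-like genes outside the H2 region, 7 were testable, 0 fell and 1 rose in MM, with a median log2 fold change of 0.24. The gene that rose was Ulbp1, a stress-induced ligand of the NKG2D receptor. It had a lowest, median and highest value of 0.591, 1.34 and 11.1 CPM in MM libraries, against 0.477, 0.732 and 0.862 CPM in SHAM libraries (log2 fold change 2.23 ± 0.48, edgeR adjusted p = 0.0242), with 8 of 9 MM libraries above all SHAM libraries. Without MM5, MM8 and MM9 together its log2 fold change was 0.92 ± 0.23 (edgeR adjusted p = 0.111). Ulbp1 was also not called without MM5, MM8, SHAM1, SHAM2, SHAM7 or SHAM8, each left out singly. Of 15 genes listed as class I receptors or their relatives, 2 were testable, Pirb and Lilrb4a, and 0 passed the edgeR test. Of these 2, 1 had an unadjusted edgeR p under 0.05, and DESeq2 called 2. Whether the product of each listed gene binds class I was not checked. The T and NK cell receptors of the list, such as Cd8a and Klrd1, had too few reads to test.

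**Figure D5:**
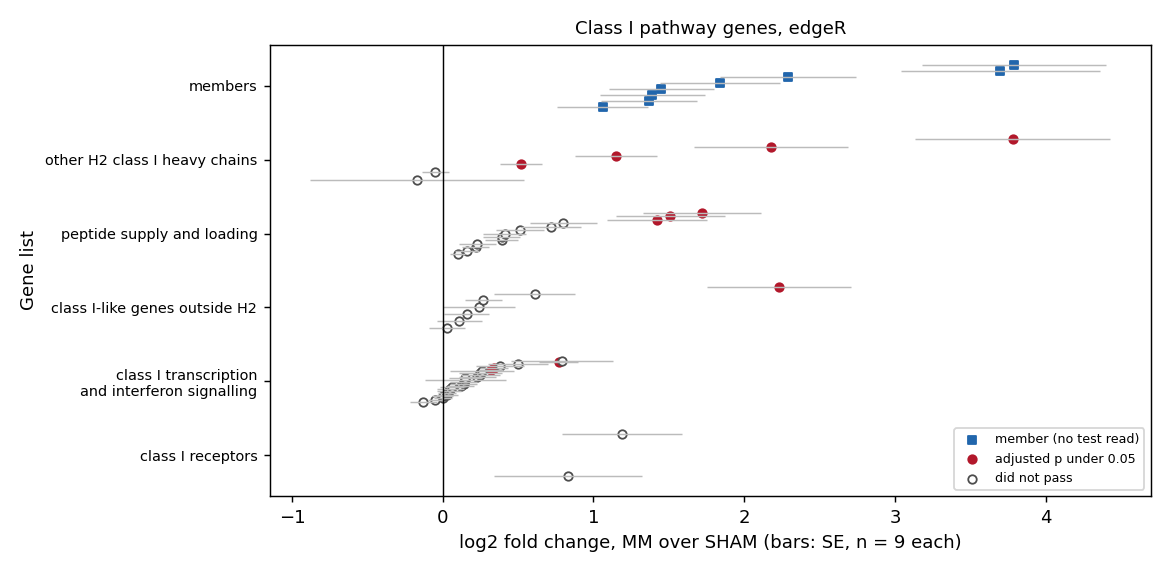
log2 fold change of MM over SHAM with its SE (n = 9 each) for every tested gene of the 6 lists; squares are the 8 members, filled circles passed the edgeR test and open circles did not. The members lie between 1.06 and 3.79, the peptide supply genes have a median of 0.41, and the transcription and interferon genes a median of 0.14.

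The genes whose pattern was most like the members' mean log2 CPM were ranked among 13712 genes with a mean of at least 1 CPM, as a description. Over all 18 libraries, where MM5, MM8 and MM9 weigh most, the closest were Tap1 (Pearson r 0.986), the lysosomal protease gene Ctss (0.985), the macrophage marker Cd68 (0.983), Fkbp11, a folding enzyme gene of secretory cells (0.981), and the kinase gene Map3k8 (0.976). Over the 9 SHAM libraries alone, their r was 0.88 for Tap1, 0.677 for Ctss, 0.65 for Cd68, 0.97 for Fkbp11 and 0.589 for Map3k8. Ranked on the SHAM libraries alone, Fkbp11 led, at only 0.543 ± 0.141 CPM there (SD, n = 9), followed by L3hypdh (r 0.911), Slc19a3 (0.901), Il18 (0.894) and Efcab12 (0.882). Fkbp11 was the 1 gene on both lists of 5; L3hypdh and Efcab12 had an r of 0.019 and -0.027 over the 18 libraries.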

How the data were processed

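The authors quantified each of 18 libraries with Salmon 1.5.2 on GRCm39, per the submitters' processing notes; index and options are not given in the sources used here. The deposited files hold an estimated count and a TPM value per transcript. The deposited table holds a normalized signal per gene, and DESeq2 is named in the submitters' processing notes. Estimated counts were summed per gene through GENCODE M21 transcript identifiers and rounded to whole numbers; 3620 of 137562 transcripts had no gene there and held 0.85% to 1.34% of reads. M21 annotates GRCm38, so identifiers serve as names, and the only coordinates given are those of RefSeq promoters on GRCm38.p6.

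The edgeR 4.0.16 package (R 4.3.3) kept 15774 genes by filterByExpr, applied TMM scaling, also to CPM, and fitted group alone in its quasi-likelihood model with robust settings. A gene passed, or was called, at a Benjamini-Hochberg adjusted p under 0.05 over all genes tested; the common biological coefficient of variation was 0.258. For log2 CPM the prior count was 2. The steps were tested on simulated data. Alternatives were DESeq2 1.42.0, limma 3.58.1 on log2(signal + 1), other scaling and filters, the replicate number as a block, left-out libraries and summed paralogs. Exact permutation tests used scipy 1.17.1 with numpy 2.4.6; tables used pandas 2.3.3 and plots matplotlib 3.10.9, in Python 3.11.15.

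Members and lists were chosen with earlier results of these data known. The text names all members, from each list the 2 lowest p values per direction among genes passing with a mean of at least 1 CPM, the 5 closest patterns over 18 and over 9 SHAM libraries, and Ighg2b; the other genes were chosen after their values were seen or to show a list. No within-group pair of libraries agreed within sampling noise (72 pairs, chi-square per gene 5.98 to 161). The number of reads limits the precision of low values. The values of 1 listed gene are not reported here.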

Additional observations from a re-analysis of the deposited data

Results flagged for a closer look

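In groups of 9, a library was looked at again when its gap to the nearest other library exceeded 0.493 of the whole range, and 5 of 82 groups of values met this, where chance gives about 1 in 20. In MM libraries, H2-Q4, H2-Q6 and H2-Q7 together held 5.92% of heavy chain TPM in MM2, far below the next library at 9.4%. In the authors' deposited table, Nlrc5 in SHAM4 was at 269, against 83.2 in the next SHAM library; the read sum does not show this gap. Ulbp1 in MM9 was at 11.1 CPM, above the next MM library at 5.08 CPM. Map3k8 in MM9 was at 51.9 CPM, above the next at 26.0 CPM. Cd68 in SHAM6 was at 5.94 CPM, above the next SHAM library at 3.61 CPM.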

How the results depend on the processing

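All 209 refit fold changes listed for members were positive, and those with other size factors kept their calls. A fit of summed heavy chains is listed once for each member in the sum, so the 209 are not all separate fits. Nothing is read from the sign, because the same contrast chose the members. Counts of calls moved widely. DESeq2 called 1376 genes (243 lower in MM), 8 members, 2 class I-like genes, 8 peptide supply genes and 2 receptors. With no filter on low counts, edgeR called 4 members, 2 other H2 heavy chains, 1 peptide supply gene and 1 transcription gene. Without MM5, MM8 and MM9 it called 60 genes, 3 members, 1 other H2 heavy chain, 0 class I-like genes, 0 peptide supply genes and 1 transcription gene. Without SHAM7 and SHAM8 it called 35 genes, 1 member and 0 genes of each list. limma on the deposited table called 3 members, and with all heavy chains summed 2 of 3 units were called. The cause of these shifts was not tested. Leaving out 1 library gave 84 (without MM5) to 1014 (without MM2) genes, 2 to 8 members, 1 to 4 other H2 heavy chains, 0 to 2 class I-like, 0 to 8 peptide supply, 1 to 3 transcription and 0 to 1 receptor genes, 10 to 16 SHAM pairs, and a difference in heavy chain to B2m ratio of 0.246 to 0.346.

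No label ties the numbers 1 to 9 of MM libraries to those of SHAM libraries. The correlation of same-numbered libraries ran from -0.34 to 0.31, 2 of 9 pairs were over 0.1, and 2 MM libraries correlated best with their own number. MM libraries differ widely among themselves, so this check cannot settle whether the numbers pair the libraries. With the replicate number as a block, 8 genes (1 lower in MM), 0 members and 0 genes of each list were called.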
